A study of Mus musculus with 12 samples.

Results

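Collagen genes of mouse dorsal root ganglia (DRG) were followed from the intact ganglion to a magnetically sorted preparation of its dissociated cells. The study describes that preparation as enriched for small nociceptors, the pain-sensing neurons, and reports that it was contaminated with red blood cells. The genes were taken as every row of the deposited table whose symbol has the form Col, a number, a and a number, with no filter on expression, which gave 44 of the 24490 genes listed. They comprised 11 fibrillar collagens, 6 of type IV, 6 of type VI, 3 short chain network collagens, 9 FACITs (fibril-associated collagens), 4 transmembrane collagens (MACITs), 2 multiplexins and a mixed group of 3 (Col7a1, Col26a1 and Col28a1). RNA was sequenced from 12 samples of adult C57Bl/6 mice, with 4 samples in each of 3 groups. The study's methods name male mice. Intact DRG were snap frozen whole, with 1 mouse per sample. Dissociated DRG were digested with enzymes that included a collagenase and were not sorted, with 2 mice per sample. After trituration, only cells in suspension were kept, and these were filtered and centrifuged. MACS samples pooled 8 mice each and were the dissociated cells left after antibody-labelled non-neuronal cells had been held back on a magnetic column. All material was used ex vivo, without culture, and the design text calls the 4 samples of a group biological replicates.

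Collagens are triple-helical proteins of the extracellular matrix, each built from 3 alpha chains that the Col genes encode. Fibrillar collagens assemble into the tensile fibres of connective tissue, type IV forms the sheet-like scaffold of basement membranes, and the other classes decorate fibrils, build fine filaments or span the cell membrane. In peripheral nerve and ganglia, fibroblasts of the capsule and the endoneurium are known for fibrillar collagens, whereas Schwann cells, satellite glia and vessel walls lie on basement membranes.

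Expression was given as FPKM, fragments scaled to the length of the transcript and to the mapped fragments of the sample, so levels of different genes can be set side by side per length. Across the 44 genes, the mean reached 1 FPKM for 28 genes in intact DRG, 25 in dissociated DRG and 10 in MACS samples. It reached 10 FPKM for 11, 7 and 0 genes. The 28 genes are described one by one or by class. Of the 16 others, the highest single value was 1.23 FPKM, for the fibrillar Col11a2 in Intact 3. Depth was estimated from the smallest steps between low values, searched within a fixed window. It was 13700000 to 19500000 fragments per sample, so that 1 fragment on a transcript of 5000 bases was worth 0.0106 to 0.0151 FPKM. Values below about 0.1 FPKM therefore rest on few fragments.

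Several libraries stood apart from others of their group. MACS 4 was the highest of the MACS samples for 26 of the 28 genes, against 27.5% of 11392 genes with a MACS mean of at least 1 FPKM. Only 10 collagens had such a mean in MACS samples, so the sets were not filtered alike. Dissociated 1 and 2 both lay above Dissociated 3 and 4 for 23 of the 28, against 25.6% of 12160 genes, and were the most alike pair of libraries, with a median absolute log2 difference of 0.0528 against 0.0763 to 0.322 for the other pairs within groups. Intact 1 differed from its group by 0.289 to 0.322, and its summed level of 6 skeletal muscle markers was 2590 FPKM against at most 57.7 FPKM in the other intact samples. In every group the 6 pan-neuronal markers summed to 2727 FPKM or more and the 5 nociceptor markers to 1970 FPKM or more.

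In intact DRG the fibrillar class led. Summed over its 11 genes, it reached 328 ± 58.8 FPKM (SD, n = 4) of the 495 ± 70.8 FPKM (SD, n = 4) of all 44 collagens, and the 3 most abundant genes of the list made up 58.0% of that total. Col1a2 and Col1a1 encode the chains of type I collagen, the main fibre of connective tissue. Col3a1 encodes type III collagen of reticular fibres. Their means were 118 ± 22.4, 78.5 ± 17.2 and 90.5 ± 22.2 FPKM (SD, n = 4), and their ranges over the samples overlapped. Within each intact sample Col1a2 was the highest of them, and Col3a1 was above Col1a1 in all but Intact 3.

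**Figure D1:**
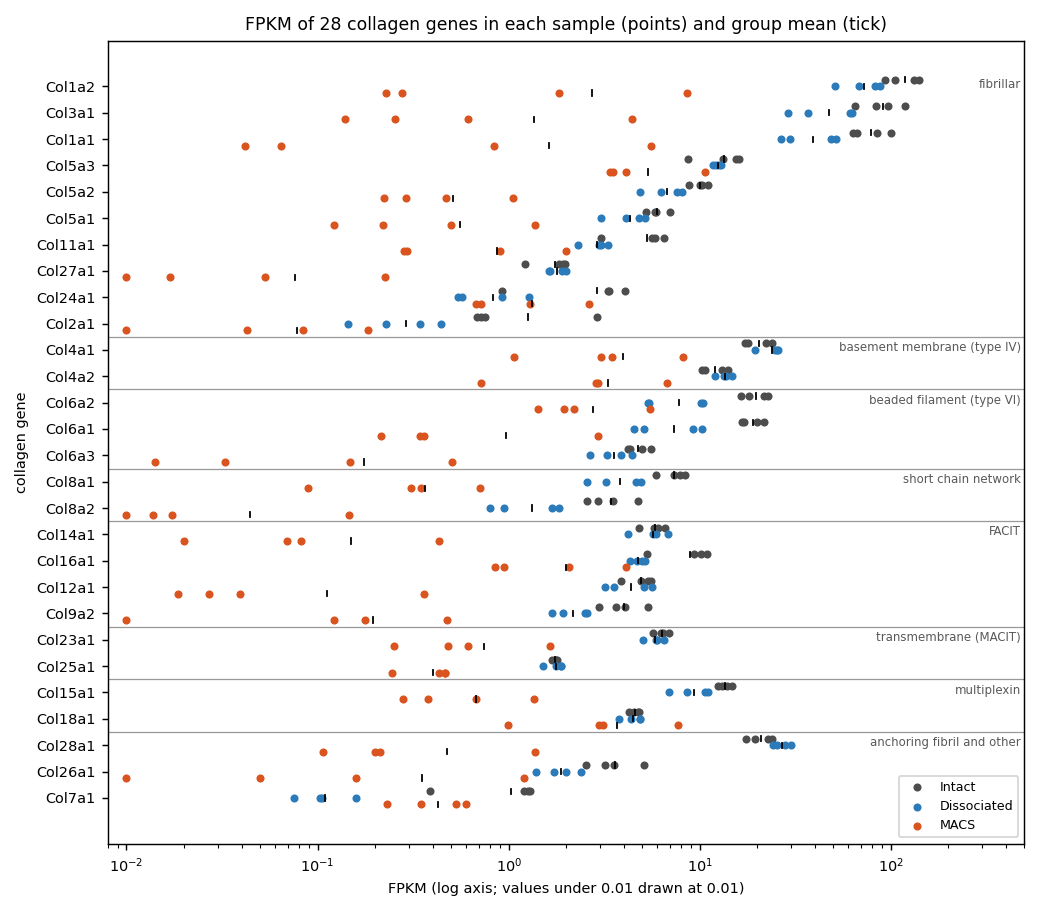
FPKM (log axis) of the 28 collagen genes with a group mean of at least 1 FPKM, by class. Points are the 4 samples of each group and the tick is their mean. The MACS points lie to the left of the others for most genes and are spread most widely. Those of Col2a1, Col5a3, Col6a2, Col11a1, Col16a1, Col18a1, Col24a1 and Col26a1 reach or approach the dissociated points, and those of Col7a1 lie above them.

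The comparison of MACS with dissociated DRG asks which transcripts differ after magnetic depletion of the dissociated cells. Fibrillar collagens of types I and III, Col28a1, FACITs, type VI and type IV collagens all had called members. No tested collagen was called higher in MACS. Differences are given as log2-fold changes on the log2(FPKM + 0.1) scale with a standard error (SE), tested with limma over all genes averaging 1 FPKM or more and with Benjamini-Hochberg adjustment, and every p below is an adjusted, two-sided p from limma. A gene passed the test at an adjusted p under 0.05. It was called where the log2 ratio of group means was also beyond 0.5 and the mean was above 5 FPKM in the higher group. Of the 44 collagens 24 were tested, 13 were called lower in MACS (12.5% of the 12038 genes tested were) and 0 were called higher (8.15%). By the adjusted p alone, 22 of the 24 were lower (27.7% of all genes tested) and 0 were higher (18.8%). Every MACS sample lay below every dissociated sample for 21 of the 24 (27.8%) and above for 0 (18.4%). The filter on low values left 20 of the 44 untested, so these counts do not stand for all of them. Fitted without the filter, the 44 genes had a median log2-fold change of -1.89, with 39 negative, against a median of -0.09 over 17657 genes. The count of 13 was the same without MACS 4, with Dissociated 1 and 2 averaged and in each fit that left out another library.

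Col1a2 was at 87.3, 83.1, 50.8 and 67.9 FPKM in Dissociated 1 to 4 and at 0.277, 0.227, 1.83 and 8.53 FPKM in MACS 1 to 4. The groups did not overlap, and MACS 4 held most of the signal that remained. The log2-fold change was -5.89 (SE 0.90, adjusted p = 0.00052), and -6.84 without MACS 4. Col1a1 went from 51.7, 48.6, 26.7 and 29.5 FPKM to 0.064, 0.0416, 0.843 and 5.57 FPKM, again with MACS 4 highest and no overlap. Its log2-fold change was -5.99 (SE 1.0, adjusted p = 0.00099), and -7.07 without MACS 4. For Col3a1, the dissociated samples had 61.4, 62.5, 29.0 and 36.8 FPKM and the MACS samples 0.255, 0.139, 0.612 and 4.44 FPKM. All 4 MACS samples were below 5 FPKM, and the log2-fold change was -5.96 (SE 0.78, adjusted p = 2e-04). In MACS samples, the mean of Col1a1 was 4.16% of the dissociated mean, that of Col1a2 3.76% and that of Col3a1 2.87%, and most of what remained came from MACS 4.

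The minor fibrillar chains were less uniform. Col5a1, Col5a2 and Col5a3 encode chains of type V collagen, which nucleates fibrils and in nerve tissue is also made by Schwann cells. Col5a2 fell by 3.64 on the log2 scale (SE 0.37, adjusted p = 4.3e-05), from 6.71 ± 1.45 to 0.510 ± 0.379 FPKM (SD, n = 4), and was called. Col5a1 passed the test at -3.11 (SE 0.52, adjusted p = 0.00089), but its dissociated mean of 4.29 FPKM was under the level needed for a call.

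Col5a3 was the most abundant collagen in MACS samples. It had 12.6, 12.2, 11.7 and 12.9 FPKM in Dissociated 1 to 4 and 4.11, 3.50, 3.40 and 10.6 FPKM in MACS 1 to 4. The groups did not overlap, but MACS 4 came within little more than 1 FPKM of the dissociated samples. The log2-fold change was -1.35 (SE 0.31, adjusted p = 0.0056), and -1.73 without MACS 4, so that the MACS mean was 43.6% of the dissociated mean.

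Among the remaining fibrillar genes, Col11a1, a type XI chain found in cartilage fibrils, had a lower level in MACS at -1.99 (SE 0.50, adjusted p = 0.0089). Col24a1, a minor fibrillar collagen, had 0.567, 0.546, 0.919 and 1.28 FPKM in dissociated and 0.674, 0.719, 1.30 and 2.63 FPKM in MACS samples. These ranges overlapped and the difference of 0.50 (SE 0.44) did not pass the test (adjusted p = 0.38), although under quantile normalization it was 1.09 with an adjusted p of 0.034. Col27a1 and Col2a1 were below the filter. Col27a1 went from 1.79 ± 0.187 to 0.0764 ± 0.101 FPKM (SD, n = 4), and Col2a1, the type II collagen of cartilage, from 0.289 ± 0.130 to 0.0777 ± 0.0790 FPKM (SD, n = 4). The groups of Col2a1 overlapped, with MACS 2 at 0.184 FPKM and Dissociated 4 at 0.144 FPKM.

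**Figure D2:**
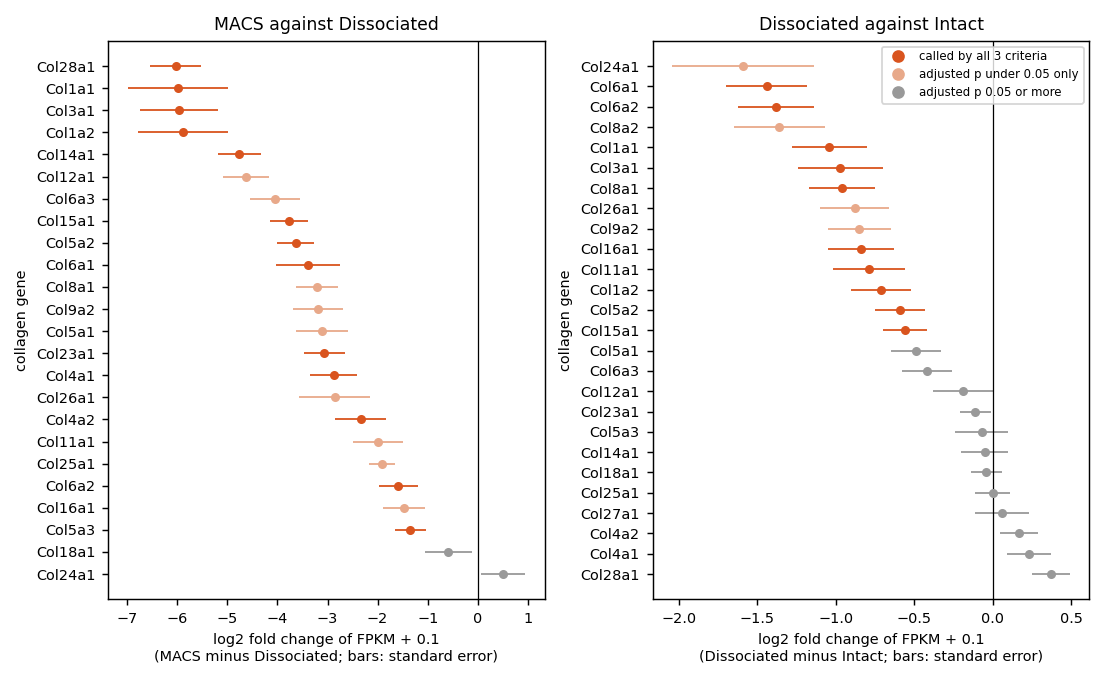
Log2-fold change of FPKM + 0.1 for each tested collagen gene, with its standard error, in MACS against dissociated DRG (left) and dissociated against intact DRG (right). The left values run from -6.03 for Col28a1 to 0.50 for Col24a1 and the right values from -1.59 for Col24a1 to 0.37 for Col28a1. The horizontal axes differ in range.

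Of the 6 type IV collagens, Col4a1 and Col4a2 were tested and both were lower in MACS. Col4a1 and Col4a2 encode the chains of the most widespread basement membrane network and are transcribed in opposite directions from neighbouring starts on chromosome 8. Col4a1 was at 25.8, 25.5, 19.4 and 24.9 FPKM in Dissociated 1 to 4 and at 3.04, 1.07, 3.47 and 8.21 FPKM in MACS 1 to 4. Col4a2 was at 13.7, 13.4, 12 and 14.7 FPKM and at 2.87, 0.721, 2.92 and 6.77 FPKM. Both genes ranked the MACS samples in the same order, with MACS 2 lowest and MACS 4 highest, and neither overlapped with dissociated DRG. The log2-fold changes were -2.88 (SE 0.47, adjusted p = 0.00079) for Col4a1 and -2.34 (SE 0.51, adjusted p = 0.0042) for Col4a2, and both were called. The other 4 type IV genes had dissociated means of 0.0453 (Col4a6) to 0.758 FPKM (Col4a5) and were not tested.

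Type VI collagen forms beaded filaments around cells. Col6a1 had 10.3, 9.18, 4.55 and 5.09 FPKM in Dissociated 1 to 4 and 0.362, 0.214, 0.345 and 2.93 FPKM in MACS 1 to 4, and was called at -3.39 (SE 0.64, adjusted p = 0.0019). Col6a2 had 10.1, 10.4, 5.39 and 5.43 FPKM and then 2.20, 1.43, 1.94 and 5.46 FPKM. It was called at -1.59 (SE 0.39, adjusted p = 0.0080), but MACS 4 lay above Dissociated 3 and 4, the only overlap among the called collagens. Col6a3 passed the test at -4.05 (SE 0.50, adjusted p = 0.00014), with means of 3.56 and 0.174 FPKM. Col6a4, Col6a5 and Col6a6 stayed at or below 0.314 FPKM in every sample.

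Col28a1 had the largest decrease of the tested collagens with all libraries, but its lead over Col1a1, Col3a1 and Col1a2 was within their standard errors. Without MACS 4 its log2-fold change was -6.65, and those of Col1a1 (-7.07), Col1a2 (-6.84) and Col3a1 (-6.84) were larger decreases. The product of Col28a1 is known from the matrix around glial cells of peripheral nerve. Col28a1 was at 30.0, 28.1, 25.3 and 24.2 FPKM in Dissociated 1 to 4, behind Col1a2, Col3a1 and Col1a1 only, and at 0.107, 0.201, 0.211 and 1.38 FPKM in MACS 1 to 4. The log2-fold change was -6.03 (SE 0.51, adjusted p = 1.5e-05) and the MACS mean was 1.77% of the dissociated mean. Col26a1, an EMI-domain collagen, passed the test at -2.86 (SE 0.71, adjusted p = 0.0081) with means of 1.88 and 0.353 FPKM.

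Fibril-associated, membrane and multiplexin collagens followed. Col14a1, a FACIT of mature fibrils, went from 5.67 ± 1.07 to 0.150 ± 0.188 FPKM (SD, n = 4) and was called at -4.76 (SE 0.43, adjusted p = 2.1e-05). Col15a1, a multiplexin linking basement membranes to fibrils, went from 9.28 ± 1.91 to 0.675 ± 0.489 FPKM (SD, n = 4) and was called at -3.77 (SE 0.38, adjusted p = 3.9e-05). Col23a1, a transmembrane collagen, went from 5.86 ± 0.618 to 0.747 ± 0.618 FPKM (SD, n = 4) and was called at -3.07 (SE 0.41, adjusted p = 0.00022). For each of these genes no MACS sample reached the lowest dissociated sample. The FACITs Col12a1 (-4.62), Col9a2 (-3.19) and Col16a1 (-1.48), the network collagen Col8a1 (-3.22) of vessel walls and the transmembrane Col25a1 (-1.92) passed the test with dissociated means between 1.76 and 4.78 FPKM. Col8a2, the partner chain of Col8a1, was not tested and went from 1.32 ± 0.521 to 0.0443 ± 0.0683 FPKM (SD, n = 4).

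Besides Col24a1, Col18a1 was the only tested collagen that did not pass the test. Col7a1, like Col2a1, Col8a2 and Col27a1, was named but not tested, and it was higher in MACS. Col18a1, a basement membrane multiplexin whose C-terminal fragment is endostatin, was at 4.85, 4.89, 3.77 and 4.39 FPKM in Dissociated 1 to 4 and at 3.13, 0.990, 2.96 and 7.66 FPKM in MACS 1 to 4. MACS 4 was above all dissociated samples and the other 3 were below them. The difference of -0.59 (SE 0.47) did not pass the test (adjusted p = 0.34), whereas without MACS 4 it was -1.04 with an adjusted p of 0.035. Col7a1, the anchoring fibril collagen, had 0.0750, 0.105, 0.158 and 0.103 FPKM in dissociated and 0.232, 0.346, 0.528 and 0.597 FPKM in MACS samples, a set that did not overlap. It was below the filter on low values, and in the fit without that filter the log2-fold change was 1.28 (SE 0.28, adjusted p = 0.0057).

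Upstream sequences are shown for the collagens at both ends of this range, 3 with high dissociated and low MACS levels (Col1a2, Col3a1 and Col28a1) and the pair that kept the largest part of their level among genes above 4 FPKM (Col5a3 and Col18a1). Each is the 250 bases before the RefSeq start in GRCm38.p6, on the gene's strand, 5′ to 3′. Capitals mark 3 motifs, searched on both strands. They are the CCAAT box, the letters TATAAA of a TATA box and the GC box core GGGCGG. The regions are chr6:4505368-4505617 (plus strand) for Col1a2, chr1:45311288-45311537 (plus) for Col3a1, chr6:8192618-8192867 (minus) for Col28a1, chr9:20815068-20815317 (minus) for Col5a3 and chr10:77166531-77166780 (minus) for Col18a1.
Col1a2: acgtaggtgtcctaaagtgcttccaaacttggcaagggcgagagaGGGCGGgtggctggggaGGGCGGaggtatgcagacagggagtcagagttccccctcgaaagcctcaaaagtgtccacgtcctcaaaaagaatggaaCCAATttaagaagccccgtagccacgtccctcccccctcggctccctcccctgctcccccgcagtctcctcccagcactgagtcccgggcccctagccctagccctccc
Col3a1: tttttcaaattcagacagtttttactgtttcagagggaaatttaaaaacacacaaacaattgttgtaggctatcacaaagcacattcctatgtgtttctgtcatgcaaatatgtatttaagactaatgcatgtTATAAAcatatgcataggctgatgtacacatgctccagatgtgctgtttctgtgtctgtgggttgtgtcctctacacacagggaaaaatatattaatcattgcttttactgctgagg
Col28a1: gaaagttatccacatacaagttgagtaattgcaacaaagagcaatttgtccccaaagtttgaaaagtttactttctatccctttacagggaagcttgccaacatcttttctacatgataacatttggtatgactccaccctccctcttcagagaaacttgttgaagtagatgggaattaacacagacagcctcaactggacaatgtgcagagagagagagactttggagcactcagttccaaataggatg
Col5a3: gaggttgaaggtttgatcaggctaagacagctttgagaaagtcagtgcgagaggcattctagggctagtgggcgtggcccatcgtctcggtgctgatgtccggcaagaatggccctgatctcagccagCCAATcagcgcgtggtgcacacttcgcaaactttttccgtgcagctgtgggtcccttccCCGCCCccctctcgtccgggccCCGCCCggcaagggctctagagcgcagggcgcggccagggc
Col18a1: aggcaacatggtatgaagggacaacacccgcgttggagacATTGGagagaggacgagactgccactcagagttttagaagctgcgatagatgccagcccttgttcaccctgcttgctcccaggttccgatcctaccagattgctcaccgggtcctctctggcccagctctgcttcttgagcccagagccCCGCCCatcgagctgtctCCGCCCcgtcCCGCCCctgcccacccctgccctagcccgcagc
The stretch of Col28a1 held none of these letters, Col3a1 held 1 TATAAA, and the other 3 held 1 CCAAT each with 2 or 3 copies of GGGCGG. GC content was 35.2% for Col3a1 and 40.4% for Col28a1, and 62.0% to 62.8% for the others, with a mean of 53.0% over 27025 genes. RefSeq entries matched 35 of the 44 collagens. CCAAT stood in 12 of the 35 (34.5% of all 27025 genes), TATAAA in 5 (13.0%) and GGGCGG in 21 (32.9%). Col1a1, Col2a1, Col4a3, Col5a2, Col9a3, Col12a1, Col14a1, Col22a1 and Col26a1 had no entry. A match is a string of letters and was not tested for binding.

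The RefSeq starts of Col4a1 and Col4a2 lie so that the transcripts run in opposite directions and share 22 bases, chr8:11312805-11312826 in GRCm38.p6. This stretch, in which the GC box core is left in lower case, is shown on the plus strand because it begins both type IV genes with a mean above 1 FPKM.
Col4a1 and Col4a2: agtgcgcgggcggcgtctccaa
In MACS samples the mean of Col4a1 was 16.5% and that of Col4a2 24.7% of the dissociated mean. The same head-to-head layout joins Col4a4 to Col4a3 over 71 bases and Col4a6 to Col4a5 over 1.34 kb, pairs that were at or below 1.00 FPKM in every sample. Col3a1 and Col5a2 lie tail to tail, 24.6 kb apart on chromosome 1, and Col6a2 and Col6a1 follow each other over 85.4 kb on chromosome 10.

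Marker genes of other cells were summed in the same libraries. Over the 12038 genes tested between MACS and dissociated DRG, 27.8% were lower and 18.4% higher without overlap. The fibroblast list (6 genes without collagens) was at 73.3 to 159 FPKM in dissociated and 7.26 to 15.8 FPKM in MACS samples, with 5 of 6 genes lower in every MACS sample and the matrix protein gene Dpt listed at 0 in all of them. Satellite glia markers (4 of 4 lower in every MACS sample) went from 362 to 498 FPKM down to 83.6 to 122 FPKM, most of the rest being Glul. Schwann markers (4 of 5 lower) were at 1381 to 2256 and 90.2 to 762 FPKM, with MACS 4 highest. Endothelial markers, in contrast, were at 38.2 to 50.5 and 11.4 to 68.1 FPKM, with 0 of 6 genes non-overlapping. MACS 2 was lowest and MACS 4 highest for this list, and likewise for the Schwann and satellite glia lists. MACS 4 was also highest for 26 of the 28 named collagens, against 27.5% of 11392 genes with a MACS mean of at least 1 FPKM, which most of the named collagens did not reach. Of the pericyte and smooth muscle list 5 of 6 were lower and Rgs5 was higher, and red blood cell markers reached 736 to 7088 FPKM in MACS against 26.1 to 147 FPKM, with Hba-a1 listed at 0 in every sample. Macrophage markers were at 5.04 to 8.75 and 0.498 to 2.35 FPKM, and cartilage and bone markers at 7.14 to 9.54 and 1.71 to 3.60 FPKM. Neuronal lists differed in direction. The 3 large-diameter neuron markers were at 701 to 873 FPKM in dissociated and 64.7 to 119 FPKM in MACS samples. Each was lower in every MACS sample. The 5 nociceptor markers were at 2095 to 2202 and 2382 to 3282 FPKM, with 3 higher and 0 lower in every MACS sample. The 6 pan-neuronal markers were at 3421 to 3783 and 2973 to 3886 FPKM, with 2 higher and 2 lower. The part of these cells in the collagen values was not tested, and in bulk samples fewer cells of a type cannot be told apart from less RNA per cell.

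The classes did not keep the same proportion of their level. Summed over the class, MACS samples held 7.79% of the dissociated mean for fibrillar collagens and 4.34% for the mixed group led by Col28a1. The corresponding figures were 19.6% for type IV, 21.3% for type VI, 16.2% for FACITs, 16.1% for transmembrane collagens, 14.7% for short chain collagens and 31.7% for multiplexins. These figures rest partly on MACS 4. Without it fibrillar collagens were at 3.88%, the mixed group at 2.11% and type IV at 12.9%. Type VI was at 12.4%, FACITs at 9.87% and multiplexins at 20.4%. Each of these was over 1.5 times lower. Short chain collagens were at 11.3% and transmembrane collagens at 11.7%, lower by factors of 1.31 and 1.38. All 44 collagens together came to 384, 371, 241 and 287 FPKM in Dissociated 1 to 4 and to 22.0, 13.4, 28.9 and 83.7 FPKM in MACS 1 to 4. As a share of that total, fibrillar collagens were 54.6% to 60.8% in dissociated and 28.2% to 44.0% in MACS samples. Type IV was 10.7% to 14.2% and 14.4% to 28.4%, and multiplexins 4.16% to 4.50% and 9.50% to 15.9%. None of these ranges overlapped between dissociated and MACS samples. These sums are descriptions, without a test, since few genes carry them.

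**Figure D3:**
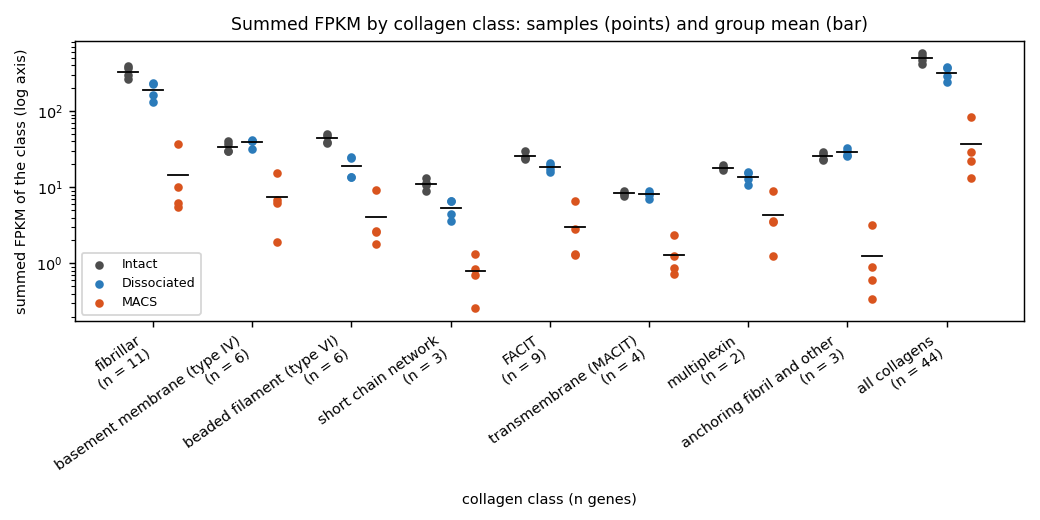
Summed FPKM (log axis) of each collagen class and of all 44 genes, with the number of genes in each. Points are samples and bars are group means. The MACS samples lie lowest in every class, and the dissociated mean is below the intact mean in most classes but not for type IV (38.7 against 34.1 FPKM) or the mixed group (28.9 against 25.5 FPKM).

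The comparison of dissociated with intact DRG addresses how levels differ between the whole ganglion and the cells kept after dissociation and filtering, before any sorting. It uses the same dissociated samples as the comparison with MACS, so the results are not independent, and each is given with its own values. Col6a1 and Col6a2 of type VI and the type I and III genes were lower after dissociation, whereas Col4a1, Col4a2 and several others did not pass the test. Of 26 collagens tested, 10 were called lower (2.76% of the 12392 genes tested were) and 0 were called higher (4.29%). By the adjusted p alone 14 were lower (7.79%) and 0 were higher (14.8%). Groups did not overlap for 13 that were lower (12% of genes tested) and for 1 that was higher (20.8%). Fitted without the filter, the 44 genes had a median log2-fold change of -0.36, with 37 negative, against -0.03 over 18061 genes. The count of 10 depended on single libraries, being 4 without Dissociated 3, without Dissociated 4 or without Intact 3, and 6 without Intact 2. With all 12 samples in 1 fit it was 1 (Col6a2), and without Intact 1, the library with muscle markers, it was 9.

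Col6a1 and Col6a2 had the largest called changes. In Intact 1 to 4, Col6a1 was at 21.6, 17.1, 20.0 and 16.6 FPKM and Col6a2 at 22.7, 16.4, 21.6 and 18.1 FPKM. The highest dissociated samples had 10.3 and 10.4 FPKM, so neither gene overlapped. The log2-fold changes were -1.44 (SE 0.26, adjusted p = 0.0072) and -1.38 (SE 0.24, adjusted p = 0.0064), and the dissociated means were 38.7% and 39.7% of the intact means. Together with Col8a1 these genes were called in every fit that left out 1 library. Col6a3, the third chain of the same filament, differed by -0.42 (SE 0.16) and did not pass the test (adjusted p = 0.086).

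Of the major fibrillar genes, Col1a1 was at 84.4, 66.2, 100.0 and 63.1 FPKM in Intact 1 to 4, all above the highest dissociated value of 51.7 FPKM. It was called at -1.04 (SE 0.24, adjusted p = 0.018), a level of 49.9% of intact DRG, and missed the threshold without Dissociated 4 (adjusted p = 0.053). Col3a1, with 118, 83.2, 96.2 and 65.0 FPKM in intact DRG against at most 62.5 FPKM, was called at -0.97 (SE 0.27, adjusted p = 0.034). Col1a2, with 132, 105, 141 and 92.9 FPKM against at most 87.3 FPKM, was called at -0.71 (SE 0.19, adjusted p = 0.029). Both calls were lost without Dissociated 3, without Dissociated 4 or without Intact 3, and that of Col3a1 also without Intact 2. In all 3 genes Dissociated 1 and 2 stood nearer to intact DRG than Dissociated 3 and 4 did.

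Further calls were made for Col8a1 (-0.96, SE 0.21, adjusted p = 0.014), Col16a1 (-0.84, SE 0.21, adjusted p = 0.022), Col11a1 (-0.79, SE 0.23, adjusted p = 0.037), Col5a2 (-0.59, SE 0.16, adjusted p = 0.027) and Col15a1 (-0.56, SE 0.14, adjusted p = 0.026). Col11a1 overlapped between groups, since Intact 1 had 3.04 FPKM and the other intact samples 5.64 to 6.53 FPKM. Its call was lost in each fit that left out 1 library other than Intact 1. Col16a1 showed the same low value in Intact 1, 5.28 FPKM against 9.34 to 10.9 FPKM, without overlap with the dissociated samples, and was not called without Dissociated 1, 2 or 3 or without Intact 2, 3 or 4. The call of Col5a2 was lost without Dissociated 3, Dissociated 4, Intact 2 or Intact 3, and that of Col15a1 without Dissociated 3, Dissociated 4, Intact 1 or Intact 3. Col24a1, Col8a2, Col26a1 and Col9a2 passed the test, with log2-fold changes between -1.59 and -0.85, but were at or below 5 FPKM on average. Of these, Col24a1 no longer passed without Dissociated 1, 2 or 3 or without Intact 2, 3 or 4, Col26a1 without Dissociated 2, 3 or 4 or without Intact 2, and Col9a2 without Dissociated 3 or 4. Intact 1 was lowest for Col24a1 too, at 0.923 FPKM against 3.30 to 4.07 FPKM.

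Type IV and several other collagens showed smaller differences. Col4a1 was at 17.8, 22.3, 24.0 and 17.3 FPKM in Intact 1 to 4, a range that overlapped with dissociated DRG. The difference was 0.23 (SE 0.14, adjusted p = 0.24), and for Col4a2 0.17 (SE 0.12, adjusted p = 0.32). For Col28a1 the intact samples had 17.4, 24.0, 22.8 and 19.5 FPKM, all below the dissociated samples. The difference of 0.37 (SE 0.12) stood at the edge of the threshold (adjusted p = 0.052, and 0.043 without Intact 1 or 0.042 without Intact 2). Col5a3 (-0.07, SE 0.17), Col14a1 (-0.05, SE 0.15), Col18a1 (-0.04, SE 0.10), Col25a1 (0.00, SE 0.11), Col23a1 (-0.11, SE 0.098), Col27a1 (0.06, SE 0.17) and Col12a1 (-0.19, SE 0.19) had estimates within about 1 standard error of 0. A test that is not passed does not show equal levels, and without Intact 1 Col5a3 was lower by an estimate of -0.26 with an adjusted p of 0.024. Col5a1 at -0.49 (SE 0.16) had groups that did not overlap and an adjusted p of 0.060.

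A pair of genes below the filter had the lowest ratios among the named genes. Col7a1 was at 0.386, 1.26, 1.29 and 1.20 FPKM in Intact 1 to 4, and all dissociated samples were at or below 0.158 FPKM. In the fit without the filter its log2-fold change was -2.33 (SE 0.34, adjusted p = 0.0052). Col2a1 was at 0.721, 0.751, 2.89 and 0.683 FPKM in intact and at most 0.440 FPKM in dissociated DRG, with -1.60 (SE 0.46, adjusted p = 0.046) in the same fit. MACS levels against intact DRG were not tested.

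The marker sums moved with dissociation as well. Fibroblast markers were at 286 to 663 FPKM in intact and 73.3 to 159 FPKM in dissociated DRG, with 4 of 6 genes lower in every dissociated sample and Dcn, a small proteoglycan that binds collagen fibrils, the most abundant. Endothelial markers were at 20.2 to 23.7 and 38.2 to 50.5 FPKM, with 6 of 6 higher in every dissociated sample. Pan-neuronal markers were at 2727 to 3017 and 3421 to 3783 FPKM, also with 6 of 6 higher, and 2 of 4 satellite glia markers were higher. Macrophage markers were lower for 5 of 5, and skeletal muscle markers for 6 of 6. Over all genes tested, 12% were lower and 20.8% higher without overlap. Their part in the collagen values was not tested.

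**Figure D4:**
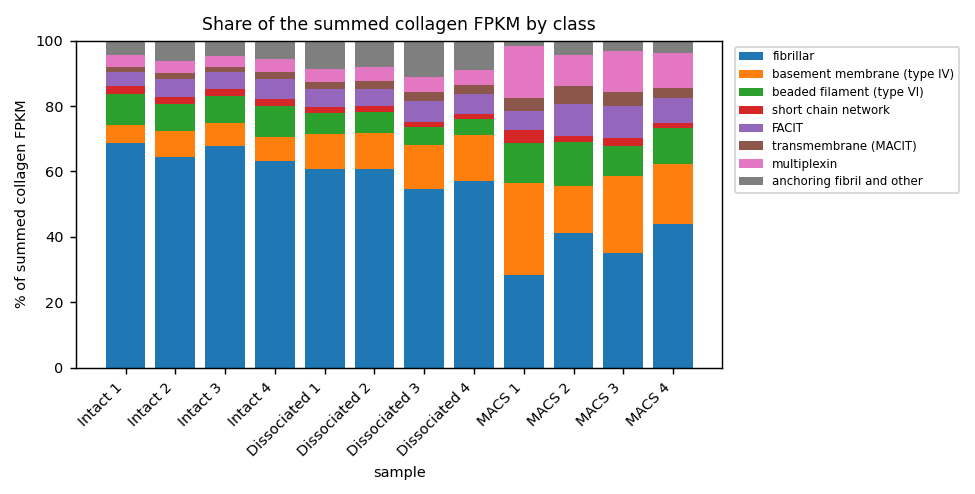
Share (%) of the summed FPKM of the 44 collagens taken by each class, 1 stacked bar per sample. Fibrillar collagens take 63.3% to 68.7% of the sum in intact, 54.6% to 60.8% in dissociated and 28.2% to 44.0% in MACS samples, while type IV takes 5.56% to 7.99%, 10.7% to 14.2% and 14.4% to 28.4%.

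Across the 3 groups, the summed fibrillar level went from 328 to 189 to 14.7 FPKM, and that of type VI from 43.7 to 19.0 to 4.05 FPKM. Type IV went from 34.1 to 38.7 to 7.56 FPKM. The order of the genes changed as well. Col1a2 was the highest collagen in intact and dissociated DRG, and in MACS samples Col5a3 (5.39 ± 3.46), Col4a1 (3.95 ± 3.03), Col18a1 (3.69 ± 2.82), Col4a2 (3.32 ± 2.52) and Col6a2 (2.76 ± 1.83 FPKM, SD, n = 4) led. Neighbours in this MACS order differed by less than their standard deviations, which measure spread between samples. Compared within samples, Col18a1 lay above Col4a2 in every MACS sample, whereas each other neighbouring pair changed order in a sample.

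The cellular machinery that makes and reads collagens was examined in a list of 44 genes for hydroxylation and glycosylation, folding and secretion, propeptide cleavage, crosslinking and receptors. Between MACS and dissociated DRG, 30 were tested, 9 were called lower (12.5% of all genes tested) and 0 higher (8.15%). By the adjusted p alone 19 were lower (27.7%) and 2 were higher (18.8%). Fitted without the filter, the list had a median log2-fold change of -1.09, with 37 of 44 negative, against -0.09 over all genes fitted.

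Serpinh1, the collagen-specific chaperone HSP47, went from 35.4, 35.8, 24.4 and 27.4 FPKM to 2.84, 1.35, 3.52 and 7.53 FPKM, at -3.21 (SE 0.41, adjusted p = 0.00017). Sparc, a secreted collagen-binding protein and the most abundant gene of the list at 366 ± 68.3 FPKM (SD, n = 4), fell by 4.02 on the log2 scale (SE 0.51, adjusted p = 0.00017). Pcolce, which enhances removal of the procollagen C-propeptide, had -4.34 (SE 0.62, adjusted p = 0.00034), and Lox, which crosslinks fibrils, -4.19 (SE 0.52, adjusted p = 0.00015). The decreases were smaller for Plod1 (-1.10), a lysyl hydroxylase, Pcolce2 (-1.02), Crtap (-0.80) of the prolyl 3-hydroxylation complex, Fkbp14 (-0.77), a prolyl isomerase of the endoplasmic reticulum, and Mia3 (-0.68), which helps load procollagen into transport vesicles. Fkbp10, another prolyl isomerase, was at 3.89 ± 0.535 FPKM (SD, n = 4) in dissociated DRG and was listed at 0 in all 4 MACS samples.

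Of the tested genes, 12 passed the test without being called. Among them Ppib, the cyclophilin that isomerises prolines in procollagen, was at 91.0 and 69.9 FPKM with a difference of -0.39 (SE 0.11, adjusted p = 0.015). Of the 4 receptors tested, the collagen-binding kinase Ddr2 (-3.02, SE 0.39, adjusted p = 0.00017) and the integrin subunit Itga1 (-1.84, SE 0.28, adjusted p = 0.00053) were lower without overlap. Itgb1, the integrin partner subunit, was at 103 and 88.6 FPKM (adjusted p = 0.051) and the kinase Ddr1 at 16.1 and 16.8 FPKM (adjusted p = 0.71), and neither passed. Adamts3, a procollagen N-propeptidase, at 0.61 (SE 0.20, adjusted p = 0.030) and the galactosyltransferase Glt25d1 (Colgalt1) at 0.37 (SE 0.086, adjusted p = 0.0059) passed the test upward without being called.

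Between dissociated and intact DRG, 37 genes of this list were tested, 5 were called lower (2.76%) and 1 higher (4.29%). Mrc2, an endocytic collagen receptor, went from 6.61, 4.45, 5.27 and 5.34 FPKM to 2.45, 2.36, 1.14 and 0.860 FPKM, at -1.73 (SE 0.31, adjusted p = 0.0075). The others were Pcolce (-1.22), the lysyl hydroxylase Plod2 (-0.70), the C-propeptidase Bmp1 (-0.68) and Serpinh1 (-0.68), with adjusted p between 0.0093 and 0.033. The calls of Serpinh1 (without Dissociated 1, Dissociated 3, Dissociated 4 or Intact 3) and Plod2 (without Intact 2 or Intact 3) were lost when 1 library was left out. Mia3 was called higher at 0.54 (SE 0.15, adjusted p = 0.029), a call lost without any 1 of the 4 dissociated libraries. The median without the filter was -0.15, with 25 of 44 negative, against -0.03 over all genes fitted.

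Exons of several collagens share bases with another gene in the GENCODE annotation. The share was largest for Col9a3, 7.68% of whose exonic bases lie opposite Tcfl5, and 2.53% for Col3a1 was the largest among called genes. Whether the estimates used strand is not given in the sources used here.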

How the data were processed

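Total RNA was polyA-selected and sequenced from 12 samples. The authors aligned reads with TopHat2 to mm10 (at most 2 alignments per read), merged lanes with SAMtools and estimated FPKM with Cufflinks 2.1.1. The deposited FPKM values, 1 per gene and sample, were used as given, and no read counts were used. limma 3.58.1 in R 4.3.3 was fitted, with an intensity trend, to log2(FPKM + 0.1) computed here from the deposited values, over the 8 samples of a comparison and all genes averaging 1 FPKM or more. It stood in for CuffDiff, which needs alignments. Calls used the study's criteria. Collagens with a mean of at least 1 FPKM in a group were named. The pathway genes named are those called in a comparison and the highest of each role, with Fkbp10, Adamts3, Glt25d1, Ddr1, Ddr2 and Itga1 added after their values were seen. The members, lists and rules were chosen with earlier results of these data known. Depth was estimated from steps of 1 fragment in low FPKM values, assuming fragments of 150 bases. The search covered a fixed window of depths, so no estimate could fall outside it. Depth limits precision by counting error only. Positions are those of mm10, with strands from GENCODE M21 and sequences from RefSeq GRCm38.p6. The procedure was tested on simulated data. Alternatives covered pseudocounts, filters, scalings, thresholds, a replicate block and each library left out.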

Additional observations from a re-analysis of the deposited data

Results flagged for a closer look

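Of 84 sets of 4 samples examined, the 28 named collagens in each group, 13 held a sample far from the other 3 by Dixon's criterion, which compares the gap to the nearest sample with the range. For independent, normally distributed values, chance alone flags about 5% of such sets. The sets of a group share the same libraries and are not independent, so this share is only a guide. MACS 4 was the sample concerned in 9 of the 13, each time as the highest. It had 5.57 FPKM for Col1a1 (others at most 0.843), 4.44 for Col3a1 (at most 0.612), 10.6 for Col5a3 (at most 4.11), 2.93 for Col6a1 (at most 0.362), 0.146 for Col8a2 (at most 0.0174), 0.361 for Col12a1 (at most 0.0393), 0.430 for Col14a1 (at most 0.0815), 1.20 for Col26a1 (at most 0.158) and 1.38 for Col28a1 (at most 0.211). In MACS 2 Col25a1 was low, at 0.244 FPKM against 0.430 to 0.466. Col4a1 was low in Dissociated 3, at 19.4 FPKM against 24.9 to 25.8. Col2a1, a cartilage collagen, was high in Intact 3, at 2.89 FPKM against 0.683 to 0.751. Intact 3 was also the intact sample with the highest sum of cartilage and bone markers (9.56 against 4.34 to 6.51 FPKM). In dissociated samples that sum was 7.14 to 9.54 FPKM, with Col2a1 at 0.144 to 0.440 FPKM. Col7a1 was low in Intact 1, at 0.386 FPKM against 1.20 to 1.29. The source of these values was not tested.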

How the results depend on the processing

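The 13 collagens called lower in MACS became 8 with genes filtered at a mean of 5 FPKM and 22 with a limit of 1 FPKM in the higher group, and stayed at 13 to 13 with each library left out. The pathway genes called lower there went from 9 to 17 and those called higher from 0 to 1 with the limit of 1 FPKM, and to 6 lower with a log2 ratio beyond 1; leaving out libraries gave 8 to 9 lower and 0 to 0 higher. Between dissociated and intact DRG, the 10 collagens called lower became 1 with all 12 samples in the fit, 3 with a log2 ratio beyond 1, 14 with the limit of 1 FPKM, and 4 to 9 with a library left out, and none was called higher in any of them. The 5 pathway genes called lower there became 3 (filter at 5 FPKM), 1 (all 12 samples), 2 (ratio beyond 1) and 3 to 5 (libraries left out), and the 1 called higher became 0 with all 12 samples, quantile normalization, a ratio beyond 1 or Dissociated 1 and 2 averaged, an alternative chosen after seeing the data, and 0 to 1 with libraries left out. The cause was not tested. Single genes that reversed were all uncalled in that comparison. With each library left out, Col14a1 ranged from -0.14 to 0.09, Col25a1 from -0.03 to 0.07, Col27a1 from -0.09 to 0.13 and Col5a3 from -0.26 to 0.03. Col14a1 went to 0.09 without Dissociated 3 and 0.02 without Intact 3, Col18a1 to 0.01 under quantile normalization and 0.04 without Dissociated 3, Col5a3 to 0.01 and 0.03 without Intact 2 and 3, Col27a1 to -0.09 without Intact 1, and Col25a1, at 0.00, to 0.00 under median-ratio size factors and without Dissociated 4, -0.03 without Dissociated 1, without Dissociated 2 and with both averaged, and -0.01 without Intact 1.

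With the replicate number as a block, 13 collagens were called lower in MACS and 9 lower after dissociation, with 9 and 5 pathway genes lower, 0 collagens higher and 1 pathway gene higher after dissociation. Samples of the same number did not deviate together (correlations -0.143 to 0.0514), so the numbers were not taken as pairs. Over all alternatives, 663 values of single genes between MACS and dissociated DRG kept direction and side of the threshold and 2 newly passed it. Between dissociated and intact DRG 570 did, 73 no longer passed, 4 newly passed and 13 reversed. FPKM without counts leave the error of values near 0 to the spread of 4 samples. The class percentages without MACS 4 in the report were also computed after seeing the data.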
